A study of Mus musculus with 30 samples.

Results

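The cerebellum of SCA7 knock-in (KI) mice was compared between postnatal day 10 (P10) and P22, across all non-control probes of a 2-colour array. The comparison used 9 of the 30 mice of the series, 5 KI mice at P10 (mice 3, 4, 6, 8 and 9) and 4 KI mice at P22 (mice 11, 12, 13 and 17), chosen by genotype and age in their labels and by no measured value. All were female, were killed by decapitation, and gave 1 array each. SCA7 is spinocerebellar ataxia 7, in which a repeat within Atxn7 is expanded. The repeat length, the zygosity and the founder of the line are not given in the sources used here. Wild-type (WT) female mice of the same ages, 5 at P10 and 5 at P22, handled alike, stand beside the KI values. The RNA of each mouse carried Cy5, and each array also carried the same Cy3 reference, a pool of all P10 animals of both genotypes, with no dye swap.

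The weeks between P10 and P22 are those in which the mouse cerebellum is built. Granule neuron precursors divide in the outer layer under Sonic hedgehog released by Purkinje cells, leave the cell cycle, migrate inward past Bergmann glia and become granule neurons, while Purkinje cells grow their dendrites and receive their synapses. Oligodendrocytes wrap the axons with myelin over the same weeks. ATXN7 belongs to SAGA, a complex that acetylates histones and removes ubiquitin from them at genes.

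Every value below is the log2 ratio of the mouse to the P10 pool, and a step is the P22 mean minus the P10 mean on that scale, followed by ± its standard error from limma. The deposited value table runs the other way, reference over mouse, so the signs here are opposite to that table. A probe or gene is called where the limma p, adjusted by the Benjamini-Hochberg method over all probes tested, was under 0.05, and rose and fell are used for called genes. The smallest correlation between any 2 of the 30 arrays, across probes, was -0.366, between KI P10 mouse 3 and WT P10 mouse 5, which is possible where P10 mice are read against their own pool and the labels state the dyes. On the 9 KI arrays Cy5 was well above background for 69.2% to 83.1% of spots, and 1.95% to 10.2% of spots were left out as outliers.

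KI P10 mice 3 and 4 stood apart from the other KI P10 mice. Across probes they correlated with each other at 0.83 and with mice 6, 8 and 9 at only 0.114 to 0.507, while mice 6, 8 and 9 correlated among themselves at 0.709 to 0.786 and the P22 mice at 0.736 to 0.872. Mice 3 and 4 were on slide 2, mice 6 and 8 on slide 1, mouse 9 and P22 mice 11 and 12 on slide 3, mouse 13 on slide 4 and mouse 17 on slide 7. Slide 3 is therefore the only slide with KI mice of both ages. Calls of named genes that ended without mice 3 and 4 or with slide as a fixed block are given with the gene. The fit without mice 3 and 4 also left out WT P10 mouse 1, which stood apart in the same way. Values within slide 3 are given for some genes and lists.

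Atxn7, the targeted gene, was read by 1 probe, whose position was not mapped here, so its values cannot be assigned to either allele. It lay at -0.38, -0.56, -0.50, -0.52 and -0.40 in KI P10 mice 3, 4, 6, 8 and 9, and at 0.45, -0.10, -0.10 and 0.26 in KI P22 mice 11, 12, 13 and 17. Every P22 mouse was above every P10 mouse. The step was 0.60 ± 0.22 (limma adjusted p = 0.0451), and an exact two-sided permutation test gave p = 0.00794, the smallest that 5 against 4 mice allow. The adjusted p rose above the threshold without any 1 of P10 mice 3, 4, 6, 8 and 9 or of P22 mice 11 and 17, with steps of 0.49 (without mouse 11, adjusted p = 0.166) to 0.62, and was 0.209 with slide as a block (0.55). In WT mice the step of the same probe was 0.90 ± 0.20, and the test of the difference between the genotypes gave an unadjusted p of 0.327.

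From P10 to P22 limma called 7191 of 33285 probes in KI mice (21.6%), 3294 higher (9.9%) and 3897 lower (11.7%), and 1620 probes (4.87%) were called and changed by over 2-fold. At gene level, with the brightest tested probe standing for each gene, 4737 of 18369 genes were called (25.8%), 2073 higher (11.3%) and 2664 lower (14.5%). The P10 and P22 mice did not overlap for 4907 genes (26.7%), and 3918 of these were also called. With every array centred on its median in place of loess the call count was 5237 probes, and the share that was higher at P22 fell from 45.8% to 24.9%. Without KI P22 mouse 17 the count was 4472 probes. Without P10 mice 3 and 4 and WT P10 mouse 1 it was 6473 of 32474 probes (19.9%), or 4243 of 17836 genes (23.8%), 10% higher and 13.7% lower, and of the 4737 genes 3473 stayed called and 0 of the 4570 that could still be measured changed sign. Of the 4737 genes 2192 were also called with slide as a block, and 30 had the opposite sign there. Within slide 3, 4579 of the 4624 called genes measured there had the same sign. The counts of signs without mice 3 and 4 and within slide 3 reuse mice that gave the calls. For the 3918 called genes without overlap those signs were fixed in advance, so these counts are no independent check.

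**Figure D1:**
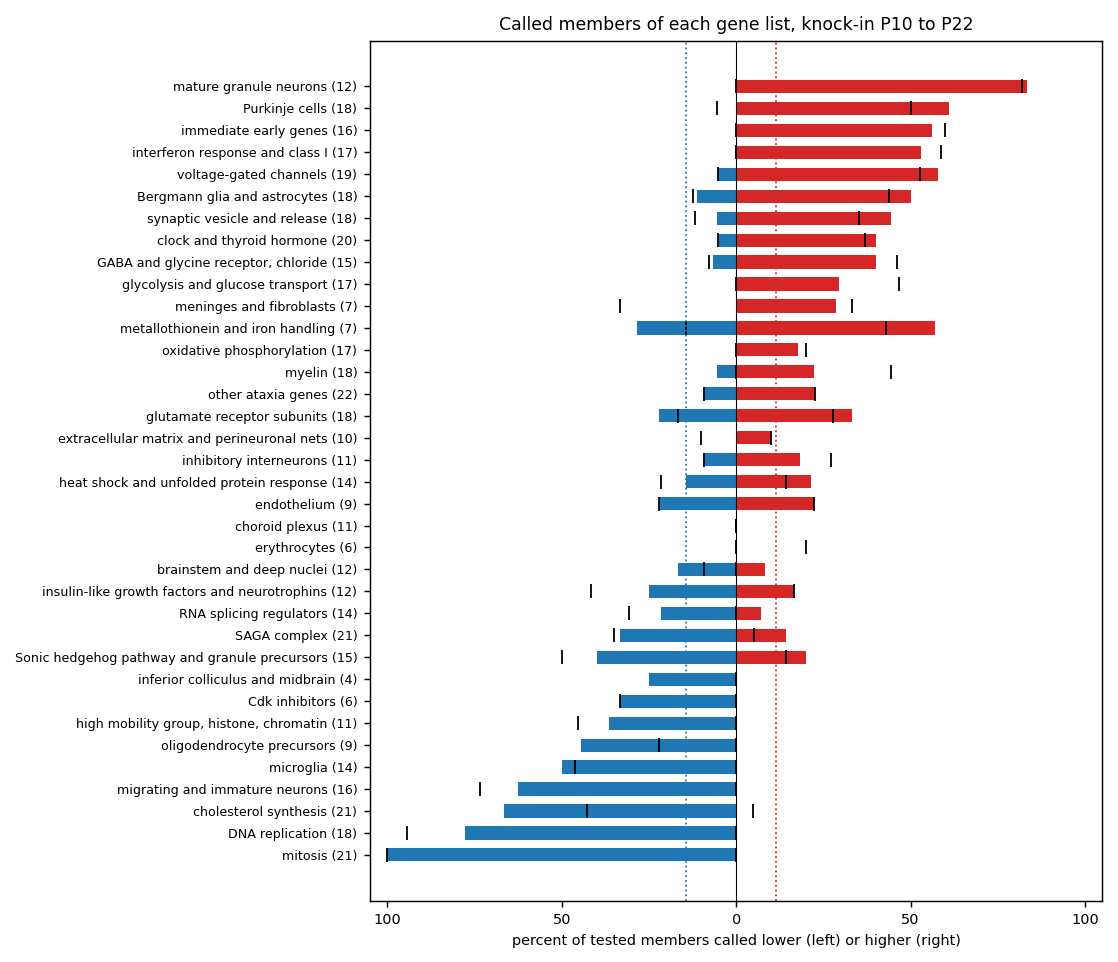
Share of the tested members of each gene list called higher (red, to the right) or lower (blue, to the left) at P22 in KI mice, with the number tested in brackets. Black ticks give the same shares without P10 mice 3 and 4, and dotted lines the shares over all genes tested, 11.3% higher and 14.5% lower. All 21 mitosis genes tested lie on the left and 10 of 12 granule neuron genes on the right.

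The 15 largest falls with no overlap between ages were led by genes of dividing precursors. Birc5, the survivin subunit of the chromosomal passenger complex, lay at -0.74, -0.61, 0.67, 0.83 and -0.11 at P10 and at -3.38, -2.97, -3.44 and -3.20 at P22. It fell by 3.25 ± 0.38 (limma adjusted p = 3.54e-06), a 9.54-fold fall, with no overlap between the ages. Uhrf1, which maintains DNA methylation at replication, fell by 3.20 ± 0.46, with P10 values of -1.49, -1.26, 0.60, 0.88 and 0.17 and P22 values of -3.16, -3.43 and -3.66 in mice 11, 13 and 17. In both genes P10 mice 3 and 4 were the lowest of the P10 mice. The remaining 13 were Insm1 (fell by 3.12), Ccnb1, Spc25, Igfbpl1, Ube2c, Sox11, Melk, Nt5dc2, Hes5, Pimreg, Vash2, H2ac13 and Cdca3 (fell by 2.51). Hes5, a Notch target of neural stem cells and glia, differed from most of them in its P10 values, which were highest in mouse 4, at 0.93, and lowest in mouse 9, at -0.25. Its step was -2.68 ± 0.23. H2ac13 is a replication-dependent histone whose copies are near identical, so its probe may read several.

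The 15 largest rises were Fam107a, Crtam, Cbln3, Gabra6, Itpr1, Chil5, Cpsf4l, Prl2c5, Atoh7, Chn2, Sycp1, Prl2c3, Fos, Gng13 and Dleu2. Fam107a, an astrocyte and neuron gene, rose by 4.07 ± 0.76 (limma adjusted p = 0.000334), from -2.49, -2.69, -0.57 and 1.10 in P10 mice 3, 4, 8 and 9 to 2.85, 2.46 and 3.40 in P22 mice 11, 12 and 17. With slide as a block it was 1.31 with an adjusted p of 0.157. Crtam, known as an adhesion molecule of lymphocytes, rose by 3.97 ± 0.49, from P10 values of -1.55, -1.76, -0.63, 0.23 and 1.12 to P22 values of 3.70, 3.26, 3.67 and 3.16, and remained called without mice 3 and 4 (3.21) and with slide as a block (2.38). Cpsf4l, named for its likeness to a polyadenylation factor, had nearly level P10 values between -0.16 and 0.23 and P22 values of 3.42, 2.90, 3.52 and 2.84. Its step was 3.17 ± 0.23, though its second, dimmer probe was at -0.17 and was not called. Prl2c5 and Prl2c3 rose by 2.88 and 2.73 (Prl2c3 by 1.70 with slide as a block, and called), but the Prl2c genes are near-identical copies and their probes may read each other. Gng13, a G protein subunit found in Purkinje cells, rose by 2.67 ± 0.50. It was 1.05 and not called with slide as a block (adjusted p = 0.162), and Sycp1, a gene of meiotic chromosomes, was 1.16 there and called.

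**Figure D2:**
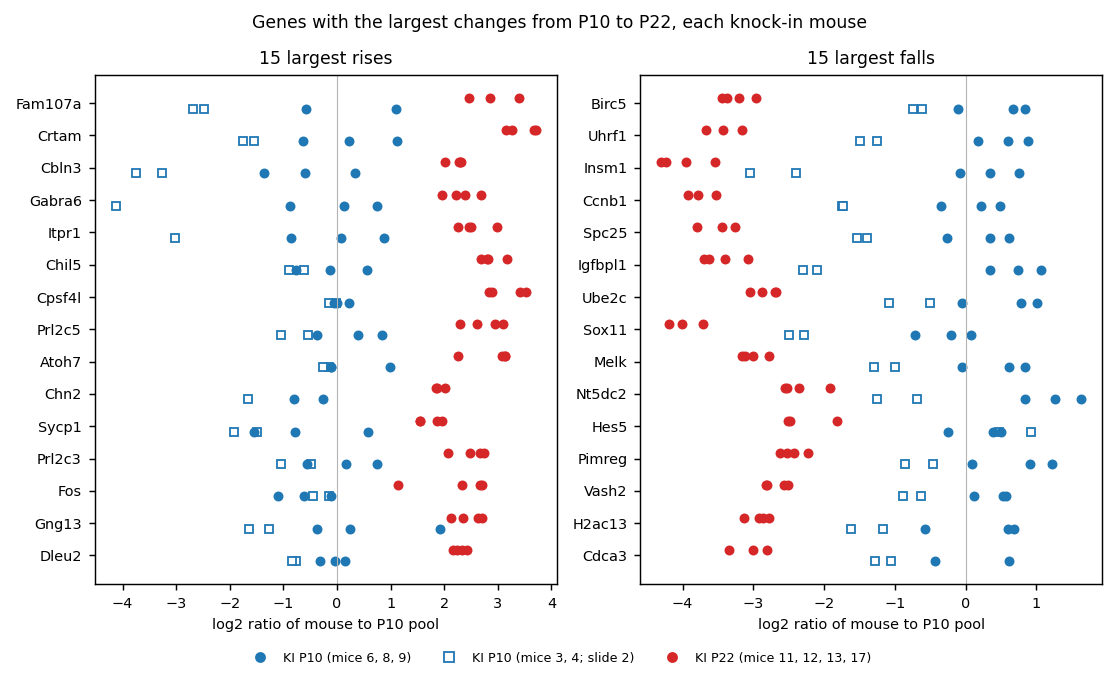
Log2 ratio of mouse to P10 pool in each KI mouse for the 15 largest rises (left) and the 15 largest falls (right) that were called without overlap of the ages. Blue circles are P10 mice 6, 8 and 9, open blue squares P10 mice 3 and 4, and red circles the P22 mice. For Birc5 the P22 mice lie between -3.44 and -2.97 and the P10 mice between -0.74 and 0.83.

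Since dividing precursor genes and granule neuron genes moved furthest apart, the sequences just before their starts are shown for 4 genes that fell and for both leading granule neuron genes. Each is the 160 bases before the annotated start, 5′ to 3′ on the strand of the gene, from RefSeq on build GRCm38.p6 (the array itself was annotated on mm7). Capitals mark 3 motifs on either strand: CCAAT (reverse ATTGG), the box bound by NF-Y; TTTGAA (reverse TTCAAA), the core of the cell cycle homology region of genes that peak in mitosis; and the E2F words TTTGGCGC, TTTCCCGC, TTTGCCGC and TTTCGCGC, which serve S phase genes. In Mcm5 the capitals include the E2F word on each strand where they overlap. The neuronal E box CAGATGG was also searched for. A match is a description of letters and shows no binding. No rule for the choice of these genes is given, and each of the 4 that fell holds a match. They do not stand for all genes that fell. Birc5 and Tyms, which also fell, held none of the 3 motifs over the longer stretch counted in the shares below. Sequences of Plk1 and Mcm3 were also drawn and are not printed. Both held CCAAT, with no TTTGAA in Plk1 and no E2F word in Mcm3.

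Ccnb1, cyclin B1, chr13:100786487-100786646, minus strand: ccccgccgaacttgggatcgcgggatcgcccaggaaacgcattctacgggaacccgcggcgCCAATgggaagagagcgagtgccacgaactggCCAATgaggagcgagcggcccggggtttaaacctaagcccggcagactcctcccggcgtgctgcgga
Cdc20, the activator of the anaphase promoting complex, chr4:118437344-118437503, minus strand: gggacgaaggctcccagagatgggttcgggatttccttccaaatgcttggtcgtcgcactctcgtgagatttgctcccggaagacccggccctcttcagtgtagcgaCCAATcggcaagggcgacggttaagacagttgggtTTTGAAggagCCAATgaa
Ube2c, its ubiquitin-conjugating enzyme, chr2:164769769-164769928, plus strand: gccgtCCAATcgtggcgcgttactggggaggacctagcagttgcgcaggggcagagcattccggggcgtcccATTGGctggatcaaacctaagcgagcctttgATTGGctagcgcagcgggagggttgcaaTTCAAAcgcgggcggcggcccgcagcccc
Mcm5, a subunit of the replicative helicase, chr8:75109349-75109508, plus strand: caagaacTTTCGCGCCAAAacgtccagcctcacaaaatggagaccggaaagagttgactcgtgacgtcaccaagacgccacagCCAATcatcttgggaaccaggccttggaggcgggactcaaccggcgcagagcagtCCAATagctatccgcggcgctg
Gabra6, the granule neuron GABA-A subunit, chr11:42321073-42321232, minus strand: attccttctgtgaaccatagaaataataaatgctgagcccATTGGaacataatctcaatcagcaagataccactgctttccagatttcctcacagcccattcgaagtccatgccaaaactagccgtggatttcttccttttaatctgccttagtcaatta
Cbln3, a granule neuron cerebellin, chr14:55884257-55884416, minus strand: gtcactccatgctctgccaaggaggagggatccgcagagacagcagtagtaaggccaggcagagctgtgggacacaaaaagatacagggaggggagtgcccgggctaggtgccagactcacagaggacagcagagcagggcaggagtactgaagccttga

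In the counts that follow, a gene with several annotated starts matched where any of them held the motif, so genes differ in the sequence searched. Among granule neuron genes with CCAAT, Chn2 had 4 starts and Tiam1 and Vsnl1 2 each. Of the mitosis genes only Prc1 had more than 1. Over the 250 bases before the start, CCAAT stood in 16 of the 18 mitosis genes with a promoter in the table (88.9%), in 9 of 15 DNA replication genes (60%) and in 4 of 10 granule neuron genes (40%). It stood in 39.2% of the 13636 tested genes with a promoter, and in 37.5% of all 27025 promoters of the table. TTTGAA stood in 8 of the 18 mitosis genes (44.4%), in 3 of 15 DNA replication genes (20%) and in 4 of 10 granule neuron genes (40%). Its share was 15.2% of the tested genes with a promoter and 18.3% of all promoters. An E2F word stood in 4 of 15 DNA replication genes (26.7%), in 1 of 18 mitosis genes (5.56%) and in 0 of 10 granule neuron genes. The share was 3.07% of the tested genes with a promoter and 2.16% of all promoters. CAGATGG stood in 1 mitosis gene and 1 DNA replication gene and in 0 granule neuron genes, against 3.93% of the tested genes with a promoter and 5.05% of all promoters. Over all called genes CCAAT stood in 43.2% of the genes that fell and 39.5% of those that rose, TTTGAA in 13.6% of each, and an E2F word in 4.67% and 3.14%.

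The mitosis list fell as a whole. Of its 23 members 21 were tested, all 21 were called lower (background 14.5% lower), and all 21 had no overlap between ages (background 26.7%). The median step was -2.34, against -0.025 over all genes, with Birc5 at one end and Bub1b, a spindle checkpoint kinase (fell by 1.55), at the other. The list mean was -1.20, -1.05, 0.37, 0.59 and -0.35 in P10 mice 3, 4, 6, 8 and 9 and -2.70, -2.33, -2.79 and -2.77 in P22 mice 11, 12, 13 and 17, so mice 3 and 4 were the P10 mice closest to P22. Without them the median step was -2.82 and 21 of 21 were again called lower, as they were with slide as a block. Whole-tissue RNA cannot tell fewer cells of a type from less RNA per cell, here or in any list below. Over all genes 25.8% were called, 11.3% higher and 14.5% lower, and the counts of each list below are to be read beside these shares.

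Single mitosis genes followed the same order of mice. Ccnb1, cyclin B1, lay at -1.75, -1.74, 0.21, 0.49 and -0.35 at P10 and at -3.78, -3.52 and -3.92 in P22 mice 11, 13 and 17, a fall of 3.11 ± 0.45 with all 3 of its probes called lower. Plk1, the polo-like kinase that drives entry into mitosis, fell by 1.92 ± 0.24, from -0.51, -0.32, 0.69, 0.97 and 0.07 to -1.70, -1.59, -1.92 and -1.74. Mki67, the usual marker of cycling cells, fell by 2.40 ± 0.39, a 5.28-fold fall. For Aurkb, the aurora kinase of the passenger complex, no P22 array was well above background, so the level there is a bound and the gene was at least 3.74-fold lower at P22 (limma adjusted p = 0.000627). Cdc20 and Ube2c, whose promoters are printed above, fell by 2.07 ± 0.42 and 2.85 ± 0.38.

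DNA replication genes fell less far than mitosis genes in the median. Of 21 members 18 were tested, 14 were called lower and 0 higher, with a median step of -0.90. Tyms, thymidylate synthase, fell by 2.40 ± 0.36, while its second probe was at -0.06 and not called. Mcm5 lay at -0.42, -0.17, 1.05, 1.27 and 0.70 at P10 and at -0.97, -0.91, -0.95 and -1.04 at P22, a fall of 1.45 ± 0.24. The P22 mice were tightly grouped and all below P10 mouse 3, the lowest of its group. Pcna, the sliding clamp, and Fen1, a flap nuclease, were at -0.23 and -0.18 and were not called, but without mice 3 and 4 they were at -0.60 and -0.62, both called, and 17 of 18 members were then called lower. Of 6 tested Cdk inhibitors Cdkn2c (fell by 1.11 ± 0.33) and Cdkn1c (fell by 0.91 ± 0.16) fell, and Cdkn1b, the inhibitor known for cell cycle exit of granule precursors, was at 0.62 and was not called.

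Within the Sonic hedgehog list, ligand and precursor genes moved in opposite directions. All 15 members were tested, 3 rose and 6 fell. Shh, the ligand made by Purkinje cells, lay at 0.17, -0.02, -0.40, -0.46 and -0.08 at P10 and at 0.49, 0.41, 0.51 and 0.44 at P22 and rose by 0.62 ± 0.15. Ptch1, its receptor, rose by 1.04 ± 0.27, and Boc, a co-receptor, by 0.90 ± 0.25. None of the 3 rises was called with slide as a block (Shh 0.43, Ptch1 0.74, Boc 0.51), and Boc was at 0.40 and not called without mice 3 and 4. Smo, the signal transducer, fell by 0.59 ± 0.15.

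Among the other genes of that list, Ccnd2, the cyclin D of granule precursors, lay at -1.59, -1.37, 0.56, 0.91 and -0.33 at P10 and at -2.58, -2.55, -2.37 and -2.02 at P22. It fell by 2.02 ± 0.39. Sfrp1, a Wnt antagonist of the outer granular layer, fell by 2.10 ± 0.38, Mycn, the Myc factor of precursors, by 1.30 ± 0.36, and Atoh1, the transcription factor that defines granule precursors, by 1.20 ± 0.32. Gli1, often read as the pathway's output, was at -0.05 ± 0.20 and did not pass, with P10 values of -0.02 to 0.36 and P22 values of 0.03 to 0.10. Gli2, the activator, was at -0.60 and Sufu, the repressor, at -0.81. Neither passed, and both were called lower without mice 3 and 4 (-0.96 and -1.32).

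Most tested genes of migrating and newly born neurons fell as well. Of 20 members 16 were tested, 10 fell and 0 rose, with a median step of -0.98 and list means of -0.72, -0.46, 0.20, 0.27 and 0.05 at P10 against -1.43, -1.29, -1.34 and -1.05 at P22. Sox11, a factor of immature neurons, fell by 2.85 ± 0.52, and all 5 of its probes were called lower. Marcksl1, a membrane and actin protein, had P10 values of -0.27, -0.09, 0.12, 0.41 and 0.32 and P22 values of -2.49, -2.60, -2.07 and -1.94. It fell by 2.37 ± 0.27, and here mice 3 and 4 lay close to the other P10 mice. Tubb3, neuronal tubulin, fell by 1.34 ± 0.20 with its highest value, 1.06, in P10 mouse 4. Dcx, doublecortin, fell by 1.01 ± 0.28, and only 1 of 4 P22 arrays read it well above background. Stmn2, Mllt11, Dcc, Astn1, Cntn2 and Plxnb2 did not pass, at -0.38 to -0.23.

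Most mature granule neuron genes rose. Of 14 members 12 were tested, 10 rose (background 11.3% higher) and 0 fell, with a median step of 2.15. The list mean was -1.28, -1.16, -0.48, -0.11 and 0.41 at P10 and between 1.48 and 1.65 at P22. The P22 mice were alike and the P10 mice spread widely, with mice 3 and 4 lowest. Without mice 3 and 4, 9 of 11 rose with a median of 1.93, and with slide as a block 7 rose with a median of 1.41.

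Cbln3 lay at -3.26, -3.75, -1.36, -0.59 and 0.34 at P10 and at 2.28, 2.29, 2.02 and 2.32 at P22, a rise of 3.95 ± 0.66 that was 2.76 without mice 3 and 4 and 2.09 with slide as a block, called each time. Gabra6 rose by 3.35 ± 0.85, from -4.13, -0.88, 0.14 and 0.74 in P10 mice 3, 6, 8 and 9 to 2.40, 2.68, 1.97 and 2.22. It was 2.09 with slide as a block (adjusted p = 0.0995), and 1 of its P22 spots was saturated. In Cbln3 mice 3 and 4, and in Gabra6 mouse 3 (mouse 4 gave no value), lay below all other P10 mice. Calb2, calretinin, was steadier, at -0.16, 0.54, -0.17, -0.35 and 1.07 at P10 and 2.70, 2.87, 2.41 and 2.42 at P22, a rise of 2.41 ± 0.29.

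Tiam1, a Rac exchange factor, rose by 1.83 ± 0.23 from -0.13, -0.09, -0.25, -0.13 and 0.64 to 1.86, 1.69, 1.76 and 2.05. Etv1, a transcription factor of maturing granule neurons, rose by 2.62 ± 0.41, and Chn2, a Rac GTPase activator, by 2.81 ± 0.26 from 3 P10 and 3 P22 mice, with 2 of its 3 probes called. Slc17a7, the vesicular glutamate transporter of parallel fibres, rose by 2.51 ± 0.55 and was 1.18 and not called with slide as a block. Cbln1, the cerebellin that joins parallel fibres to Purkinje dendrites, rose by 1.72 ± 0.54, but its P22 spots were saturated on 3 of 4 arrays, the ages overlapped, and it was 0.73 without mice 3 and 4 and 0.81 and not called with slide as a block. Fat2, a cadherin, and Cadps2, a release factor, did not pass, at 0.35 and 0.56.

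**Figure D3:**
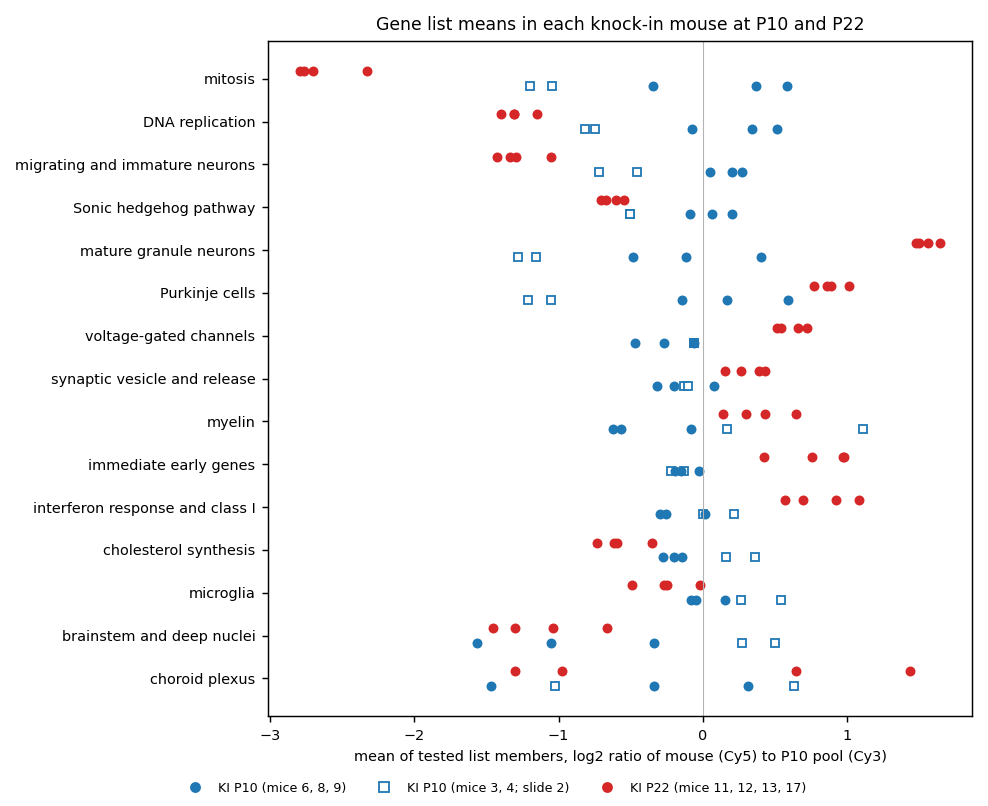
Mean log2 ratio over the tested members of 15 lists in each KI mouse, with blue circles for P10 mice 6, 8 and 9, open squares for P10 mice 3 and 4, and red circles for P22 mice. Mitosis means lie between -2.79 and -2.33 at P22 and granule neuron means between 1.48 and 1.65, while the choroid plexus and brainstem means overlap between the ages.

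Receptor subunits changed in opposite directions within families. Of 15 tested GABA and glycine genes 6 rose and 1 fell. Gabrb2, a beta subunit of GABA-A receptors, lay at -1.69, -0.63 and -0.37 in P10 mice 3, 6 and 9 and at 0.77, 0.55 and 1.00 in P22 mice 11, 13 and 17 and rose by 1.67 ± 0.30. The measured mice of the 2 ages did not overlap. Gabra3, a subunit of immature neurons, fell by 1.18 ± 0.29, and was at -0.61 and not called with slide as a block, the ages overlapping. Slc12a5, the chloride exporter KCC2, rose by 0.92 ± 0.30, and Slc12a2, the importer NKCC1, by 0.65 ± 0.18. Neither of them was called with slide as a block, at 0.78 and 0.55, where 2 genes of the list rose and 0 fell. Gabra2, Gabra4, Gabra5, Gabrb1, Gabrg1, Gabrg3 and Glra1 did not pass, at -0.66 to 0.53.

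Of 18 tested glutamate receptor genes 6 rose and 4 fell. Grin2b, the NMDA receptor subunit of young synapses, lay at 0.05, 0.63, 0.22, 0.30 and 0.19 at P10 and at -1.34, -1.35, -1.25 and -1.63 at P22 and fell by 1.67 ± 0.21, while only 1 of its 4 probes was called. Grin2a, its counterpart at older synapses, was at 0.20 and did not pass, and only 1 array of each age read it well above background. Gria1, an AMPA subunit, rose by 1.75 ± 0.27, Gria3 by 1.01 and Gria4 by 1.00 ± 0.16. Grm5, a metabotropic receptor, fell by 1.61 ± 0.40 on all 4 probes. Grm5 was at -0.56 with slide as a block and not called, nor was Grik5 there, at -0.64. Grik2 rose and Grik5 and Grin2d fell, by 0.72, 0.95 and 0.31. Without mice 3 and 4, Grik2 (0.64) and Grin2d (-0.29) were not called, and with slide as a block 5 genes of the list rose and 2 fell.

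Among 19 tested voltage-gated channel genes 11 rose and 1 fell, with list means of -0.06, -0.06, -0.27, -0.47 and -0.06 at P10 and 0.72, 0.55, 0.51 and 0.66 at P22. Mice 3 and 4 lay within the other P10 mice in this list. Kcnc1, the fast potassium channel Kv3.1, lay at 0.06, -0.55, -0.63, -0.43 and 0.64 at P10 and at 2.02, 1.93 and 2.01 in P22 mice 11, 12 and 17 and rose by 2.17 ± 0.32. Its dimmer probes were at 1.00 (called) and 0.29 (not called). Kcna1 rose by 1.78 ± 0.29, and the sodium channel genes Scn2a, Scn1a and Scn8a rose by 1.58, 1.17 and 0.67. Cacna2d2, a calcium channel accessory subunit, was the member that fell, by 0.36, and was at -0.32 and not called with slide as a block. Cacna1a, the P/Q-type channel of Purkinje cells, was at 0.73 and did not pass.

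**Figure D4:**
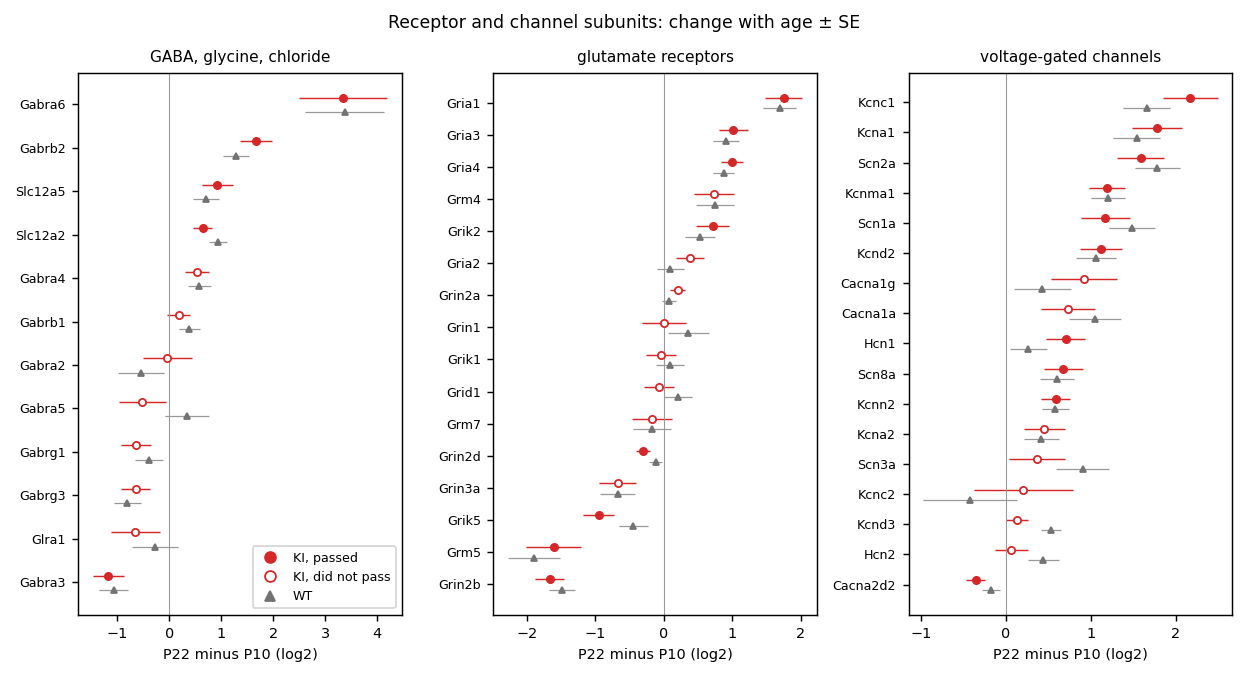
Step from P10 to P22 (log2) with its standard error for the tested receptor and channel genes reported here, in KI mice (red circles, filled where called) and in WT mice (grey triangles). In KI mice Gabra6 and Gria1 lead their families upward, at 3.35 and 1.75, and Gabra3 and Grin2b lie lowest, at -1.18 and -1.67.

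Of 18 tested synaptic vesicle and release genes 8 rose and 1 fell. Snap25, the membrane SNARE of the nerve ending, rose by 2.15 ± 0.29 from 0.21, -0.50, -0.74, -0.55 and 0.21 to 2.11, 2.00 and 1.53 in P22 mice 11, 13 and 17. The active zone genes Unc13c and Rims1 rose by 1.55 ± 0.15 and 1.57 ± 0.20, with P10 values in narrow ranges of -0.94 to -0.63 and -0.69 to -0.50. Stx1a, syntaxin 1A, fell by 1.52 ± 0.32 from 0.22, 1.04, 0.05, -0.38 and -0.04 to -1.61, -1.47, -0.89 and -1.39. With slide as a block 3 genes of the list rose and 2 fell.

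Most Purkinje cell genes tested rose, by sizes that depended on mice 3 and 4. Of 23 members 18 were tested, 11 rose and 0 fell, with a median of 1.23. The list mean was -1.05, -1.21, -0.15, 0.17 and 0.59 at P10 and 1.01, 0.86, 0.77 and 0.89 at P22, so P10 mouse 9 lay close to the P22 mice. Without mice 3 and 4, 9 rose and 1 fell with a median of 0.68. The block for slide left 3 rises with a median of 0.36, and within slide 3 the median was 0.23.

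Itpr1, the calcium release channel, rose by 3.28 ± 0.64, from -3.03, -0.86, 0.08 and 0.88 in P10 mice 4, 6, 8 and 9 to 2.98, 2.51, 2.25 and 2.47, and was called at 2.52 without mouse 4 and at 2.28 with slide as a block. Of its P22 spots 1 was saturated. Plcb4, the phospholipase upstream of it, rose by 1.60 ± 0.24 with even P10 values of -0.75 to -0.48. Pvalb, parvalbumin, rose by 2.47 ± 0.50 and was 1.02 and not called with slide as a block. Calb1, calbindin, had P10 values of -2.39, -2.63, 0.06, 0.69 and 1.30 and P22 values of 1.53, 1.44, 1.10 and 0.96, which overlap. Its step was 1.85 ± 0.65 (limma adjusted p = 0.0413), 0.57 and not called without mice 3 and 4, 0.44 and not called with slide as a block, and 0.19 within slide 3. Pcp2, a Purkinje cell marker, did not pass, at 1.70 ± 0.67. Rora, the nuclear receptor needed for Purkinje maturation, rose by 1.62 ± 0.42, was 0.80 and called without mice 3 and 4, and was 0.70 and not called with slide as a block. Lhx5, a factor of young Purkinje cells, was at -0.30 and was called lower without mice 3 and 4, at -0.57.

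Of 11 tested inhibitory interneuron genes 2 rose and 1 fell, close to the 25.8% called over all genes. Gad1, the GABA-synthesising enzyme, rose by 1.69 ± 0.24, from -0.70, -0.79, -0.75, -0.44 and 0.48 to 1.26, 1.29, 1.07 and 1.39. Kit, a receptor of molecular layer interneurons, rose by 0.91 ± 0.21, at 0.48 and not called with slide as a block.

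Of 18 tested Bergmann glia and astrocyte genes 9 rose and 2 fell, the latter being genes of immature or reactive glia. With slide as a block 5 rose and 1 fell, and without P22 mouse 17, when 11 could be tested, 2 rose. Gjb6, connexin 30, rose by 1.72 ± 0.27, Glul, glutamine synthetase, by 1.30 ± 0.24, and Slc1a3 and Slc1a2, the glutamate transporters, by 1.52 and 1.15. Etnppl, an astrocyte enzyme, had no P10 array well above background and was at least 2.18-fold higher at P22, where it ranged from 0.17 to 2.42, with mouse 12 inside the P10 range. With slide as a block it was 0.63 and not called. Aldoc was among the 9, but its spots were saturated on all 4 P22 arrays. Fabp7, the lipid binding protein of radial and Bergmann glia, fell by 1.49 ± 0.36. Gfap, the intermediate filament, lay at 1.02, -0.63, 0.05, 0.28 and 0.10 at P10 and at -1.20, -0.93, -1.09 and -0.76 at P22, a fall of 1.16 ± 0.30 that was as large within slide 3 (-1.16) and was not called with slide as a block (-1.14).

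Of 18 tested myelin genes 4 rose and 1 fell, in all 27.8%, close to the 25.8% called over all genes. The list mean was 1.11, 0.17, -0.57, -0.62 and -0.08 at P10 and 0.30, 0.43, 0.65 and 0.14 at P22, so P10 mouse 3 lay above every P22 mouse. Without mice 3 and 4, 8 rose and 0 fell, and the median went from 0.34 to 0.76. Mal, a myelin proteolipid, lay at 0.63, -0.34, -1.37, -1.61 and -0.57 at P10 and at 1.35, 1.55, 1.64 and 1.69 at P22 and rose by 2.21 ± 0.34. Aspa, aspartoacylase, and Opalin, a late oligodendrocyte protein, rose by 1.35 ± 0.27 and 1.33 ± 0.33, and Ermn, a myelin cytoskeleton protein, by 1.13. Opalin was 0.95 and not called with slide as a block. Mbp, a main myelin protein, did not pass, at 0.21, and was saturated on all 4 P22 arrays. Sirt2, a deacetylase of myelin, fell by 0.84 ± 0.27, and was at -0.39 and not called without mice 3 and 4.

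Of 9 tested oligodendrocyte precursor genes 4 fell and 0 rose. Pdgfra, the growth factor receptor of these cells, lay at 0.05, 0.03, -0.50, -0.91 and -1.17 at P10 and at -2.13, -2.03, -1.83 and -1.94 at P22 and fell by 1.48 ± 0.25. Neu4, a sialidase, fell by 0.87 ± 0.19. Cspg4 and Sox10 fell by 0.84 and 0.57, but were at -0.35 and -0.27 and not called without mice 3 and 4. The call of Cspg4 was also lost without any 1 of P10 mice 3 and 4 and P22 mice 11, 12, 13 and 17, at -0.64 to -0.89 by limma, and with slide as a block it was at -0.05. Sox10 was at -0.23 and not called there. Of 10 tested matrix genes Hapln2, a link protein of nodes of Ranvier, was the 1 that rose, by 1.20 ± 0.34.

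Of 14 tested microglia genes 7 fell and 0 rose, with a median of -0.51. Tyrobp, a signalling adaptor, lay at 0.66, 0.68, 0.72, 0.56 and 0.27 at P10 and at -0.18, -0.12, 0.08 and -0.39 at P22 and fell by 0.73 ± 0.15. Cd68, a lysosomal protein of phagocytes, and C1qa, a complement subunit, fell by 0.79 ± 0.16 and 0.89 ± 0.21. Tyrobp (-0.41) and Cd68 (-0.49) were not called with slide as a block. P2ry12 and Tmem119, markers of resting microglia, were at 0.34 and -0.23 and did not pass. Only 2 of the 14 were called lower with slide as a block, with a median of -0.26.

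Of 17 tested interferon response and class I genes 9 rose and 0 fell, and the ages did not overlap for 12. Over all genes 11.3% rose, and the ages did not overlap for 26.7%. Ifit3, an interferon-induced antiviral protein, lay at 0.06, -0.17, -0.30, -0.63 and 0.03 at P10 and at 2.18, 1.91, 2.50 and 1.35 at P22 and rose by 2.19 ± 0.30. Ifit1 rose by 1.67 ± 0.38, Usp18, which removes ISG15, by 1.34 ± 0.37, and B2m, the class I light chain, by 1.12. Rsad2, viperin, did not pass at 0.45 ± 0.56. Its P10 values ran from -1.88 in mouse 6 to 2.00 in mouse 4, and without mice 3 and 4 it was at 1.56 and called. The block for slide left 3 of the 17 called, with a median of 0.69 against 0.71, and not Ifit1 (1.47) or Usp18 (1.18).

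Of 16 tested immediate early genes, which neurons switch on within minutes of activity, 9 rose and 0 fell, with list means of -0.22 to -0.02 at P10 and 0.43 to 0.98 at P22. Fos lay at -0.16, -0.45, -0.61, -1.09 and -0.11 at P10 and at 2.67, 2.71, 2.33 and 1.13 at P22, lowest in mouse 17, and rose by 2.69 ± 0.57. Egr1 rose by 2.09 ± 0.29, Nr4a1 by 1.89 ± 0.41, Dusp1, a phosphatase of the same response, by 1.79 ± 0.32, and Npas4 by 1.37 ± 0.36. Arc, Egr2, Egr3, Fosb, Ier2, Btg2 and Homer1 did not pass, at -0.20 to 0.51. The block for slide left 6 rises. The time of day and the interval from handling to death are not given in the sources used here.

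Of 20 clock and thyroid hormone genes, all tested, 8 rose and 1 fell. Nr1d2, a repressor of the clock, rose by 1.48 ± 0.17, from -0.19, -0.89, -0.88, -0.81 and -0.20 to 0.96, 0.64 and 1.06 in P22 mice 11, 13 and 17. Bhlhe40 rose by 1.24 ± 0.21, Per1 by 0.94 and Clock by 0.76 ± 0.16. Thra, a thyroid hormone receptor, fell by 0.98 ± 0.21. Klf9 and Hr, direct targets of that hormone, were at 0.55 and 0.78 and did not pass. With slide as a block 5 of the list rose and 1 fell.

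Most cholesterol synthesis genes fell. Of 22 members 21 were tested, 14 fell and 0 rose, with a median of -0.65 and list means of 0.37, 0.16, -0.15, -0.20 and -0.28 at P10 and -0.61, -0.60, -0.35 and -0.74 at P22. Mvd, the mevalonate decarboxylase, lay at 0.74, 0.65, 0.71, 0.89 and 0.63 at P10 and at -0.72, -0.84, -0.47 and -0.60 at P22. It fell by 1.38 ± 0.14, with little spread within either age. Mvk and Nsdhl, earlier and later enzymes, fell by 1.10 ± 0.12 and 1.07 ± 0.14. Without mice 3 and 4, 9 of 21 fell and 1 rose. The block for slide left 6 falls, with a median of -0.39.

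Of 17 tested oxidative phosphorylation genes 3 rose, against the 25.8% of all genes called in either direction. They were Sdha (0.87 ± 0.17), Cycs (0.71 ± 0.18) and Uqcrc2 (0.67 ± 0.11), parts of complexes II and III and cytochrome c, and centring every array on its median ended all 3 calls, at 0.44, 0.33 and 0.25. Sdha (0.58) and Cycs (0.56) were also not called with slide as a block. Of 17 tested glycolysis genes 5 rose and 0 fell, in all 29.4%, near the share over all genes, and median centring ended all 5 calls. Pfkm, the muscle-type phosphofructokinase, rose by 0.89 ± 0.18, and Pgk1, phosphoglycerate kinase, by 0.57 ± 0.15, at 0.66 and 0.15 with that centring and at 0.54 and 0.51, not called, with slide as a block. Hk2, hexokinase 2, rose by 0.65 ± 0.20, and its limma call was lost without any 1 of mice 3, 4, 11 and 17, at 0.53 to 0.65, and without both mice 3 and 4, at 0.39. It was 0.50 with median centring and 0.35 with slide as a block. The other 2 were Ldhb, at 0.12 and not called with slide as a block, and Aldoc.

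Of 11 tested genes of the list of high mobility group, histone variant and repressor genes 4 fell and 0 rose. Hmgb3 lay at -0.54, -0.22, 0.29, 0.42 and 0.13 at P10 and at -1.79, -1.47 and -1.58 in P22 mice 11, 13 and 17 and fell by 1.63 ± 0.18. Hmgb2, tied to dividing cells, fell by 2.40 ± 0.47, Hmgn2 by 1.41, and the deacetylase Hdac1 by 0.55 ± 0.12, while Hmgb1 and Hmga1 did not pass, at -0.49 and -0.27, Hmgb1 being called lower, at -1.10, without mice 3 and 4. Of 14 tested splicing regulators Elavl1 (fell by 0.93 ± 0.15), Ptbp1 (fell by 0.85 ± 0.17) and Rbfox2 (fell by 0.65 ± 0.19) fell and Celf1 (0.83 ± 0.24) rose. These were 28.6% of the regulators tested, near the 25.8% called over all genes. Celf1 was not called without mice 3 and 4, at 0.64, with slide as a block, at 0.69, or with median centring, at 0.51.

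The SAGA complex itself changed unevenly. Of 22 members 21 were tested, 3 rose and 7 fell. Its acetyltransferase paralogues went opposite ways. Kat2b lay at -1.07, -1.38, -0.86, -0.83 and -0.54 at P10 and at 0.41, 0.38, -0.10 and 0.65 at P22 and rose by 1.27 ± 0.24. Kat2a lay at 0.61, 1.09, 0.61, 0.55 and 0.77 at P10 and at -0.06, -0.15, 0.01 and -0.21 at P22 and fell by 0.83 ± 0.22. Atxn7 and its paralogue Atxn7l1 were the other rises (Atxn7l1 0.70 ± 0.23, 0.71 and not called without mice 3 and 4).

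The 6 other SAGA members that fell were Supt3 (by 0.90 ± 0.18) and Taf6l (by 0.83 ± 0.16) of the core, Taf10 (by 0.66 ± 0.11), shared with TFIID, Usp22 (by 0.64 ± 0.21), the deubiquitinase that ATXN7 anchors, Trrap (by 0.49 ± 0.16), the activator-binding subunit, and Taf5l (by 0.39 ± 0.14). Trrap was at -0.40 and not called without mice 3 and 4. Eny2 and Atxn7l3, the partners of Usp22, were at -0.19 and -0.08 and did not pass. With slide as a block 1 member of the complex was called higher and 4 lower, the latter including a member not called without the block. Calls that ended there were those of Atxn7 (0.55), Kat2a (-0.63), Usp22 (-0.72), Trrap (-0.18), Taf5l (-0.53) and Atxn7l1 (0.43). In WT mice 3 members of the complex were called higher and 7 lower, not all of them the same members. The difference of the steps had an unadjusted limma p under 0.05 for 0 members. Examples of WT steps were 1.07 for Kat2b, -0.42 for Kat2a (not called), -0.56 for Usp22 and -0.41 for Taf10.

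Of 22 other ataxia genes, all tested, 5 rose and 2 fell, in all 31.8%, near the 25.8% called over all genes. Among the rises were Itpr1, described above, Fgf14 (0.97 ± 0.26), Atxn1 (0.96 ± 0.23) and Syne1 (0.76 ± 0.18). Fgf14 (0.88) and Atxn1 (0.73) were not called with slide as a block. With median centring 1 of the list rose and 3 fell, and Atxn1 was at 0.79 and not called. Ppp2r2b, a phosphatase subunit, lay at 0.06, 0.16, -0.01, -0.41 and -0.55 at P10 and at -1.50, -1.46, -1.04 and -1.78 at P22 and fell by 1.30 ± 0.18. Aptx, a DNA repair enzyme, fell by 0.46 ± 0.11.

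Of 12 tested insulin-like growth factor and neurotrophin genes 2 rose and 3 fell. Ngfr, the low-affinity neurotrophin receptor of precursors, lay at -0.15, 0.10, 0.82, 0.89 and 0.29 at P10 and at -1.46, -1.25, -1.40 and -1.31 at P22 and fell by 1.74 ± 0.19. The binding proteins Igfbp2 and Igfbp4 fell by 1.77 ± 0.31 and 1.07 ± 0.16 and Igfbp3 rose by 0.91 ± 0.22, though it was 0.44 and not called with slide as a block. Bdnf, the neurotrophin of granule neurons, rose by 1.63 ± 0.43, with P10 values from -1.73 in mouse 8 to 0.78 in mouse 4. The list median was 0.26, and -0.16 without mice 3 and 4, when Igf1 and Igf2 were also called lower.

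Of 14 tested stress genes 3 rose and 2 fell, Hspa1a, an inducible chaperone with a near-identical copy, by 1.20 ± 0.23, Xbp1, a factor of the unfolded protein response, by 0.84 ± 0.16 and Hsp90aa1 by 0.43 upward, and Hsp90ab1 and Sesn2 by 0.51 and 0.53 downward. In all 35.7% of the list was called, against 25.8% over all genes. Without mice 3 and 4, Hsp90aa1 (0.32) and Sesn2 (-0.39) were not called, nor, with slide as a block, were Xbp1 (0.40), Hsp90aa1 (0.19) and Sesn2 (-0.53). Of 7 tested metallothionein and iron genes 4 rose, among them Mt1 (1.54 ± 0.27) and Mt2 (2.16 ± 0.43), which bind zinc, and Trf (1.36 ± 0.34), transferrin, with 1 saturated P22 spot each for Mt1 and Mt2. Ftl1, ferritin light chain, fell by 0.78 ± 0.14, and Slc40a1, the iron exporter, by 0.56. Slc40a1 was at -0.49 and not called without mice 3 and 4 and at 0.04 with slide as a block.

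Markers of tissue outside the cerebellar cortex varied with single mice. Of 12 tested brainstem and deep nuclei genes Slc6a2, the noradrenaline transporter, fell by 2.19 ± 0.59, Slc18a3, the acetylcholine transporter, fell by 0.93 ± 0.32 and Spp1, osteopontin, rose by 0.91 ± 0.33. Together they were 25% of the genes tested, against 25.8% called over all genes. Slc18a3 was at -0.39 and not called without mice 3 and 4, and its limma call was lost without any 1 of mice 3, 4, 11, 12 and 17 (-0.72 to -0.95). Slc6a2 (-2.19) and Slc18a3 (-0.52) were not called with slide as a block. The call of Spp1 was lost without any 1 of mice 4, 9, 11, 12, 13 and 17 (0.66 to 1.02) and without both mice 3 and 4 (0.91). The mean of that list was 0.50, 0.27, -0.34, -1.57 and -1.05 at P10 and -1.30, -1.04, -0.66 and -1.46 at P22, so mice 3 and 4 carried the most of it, in the same 2 mice in which granule, Purkinje and mitosis genes were lowest among the P10 mice and myelin was highest. Its median step was -0.79, and -0.04 without them. The part of this tissue in the steps above was not tested beyond leaving those mice out.

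Choroid plexus genes were called in 0 of 11 members, and the list mean ran from -1.47 to 0.63 at P10 and from -1.30 to 1.44 at P22. Ttr, its main product, differed by several log2 units within each age, from -3.88 to 1.17 at P10 and from -3.77 to 2.16 at P22. Erythrocyte genes were called in 0 of 6, with the highest list mean, 1.97, in P10 mouse 4. Of 9 endothelial genes Ly6c1 and Flt1 rose by 1.38 and 0.92 and Cldn5 and Esam fell by 0.67 and 0.45. Neither fall was called with slide as a block (-0.46 and -0.21), and Flt1 was at 0.74 and not called with median centring. Of 7 tested meningeal genes Ogn and Fmod rose by 1.36 and 0.75, with Ogn at -1.78 and -1.57 in P10 mice 3 and 4 and between -0.49 and 0.24 in the other P10 mice. They were at 0.70 and 0.50 without mice 3 and 4, both called, and with slide as a block Fmod was at 0.58 and not called. Of 4 midbrain genes Pou4f1 fell, by 0.35, and was at -0.27 and not called without mice 3 and 4 and at -0.21 and not called with slide as a block.

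Other settings moved several list counts of 3 or more by over 1.5 times, and not every such move is given here. With scan day as a fixed block the rises were 1 in Purkinje cells, 5 in mature granule neurons and 2 in interferon genes. The falls there were 20 in mitosis, 7 in DNA replication, 4 in cholesterol synthesis and 2 in the Sonic hedgehog list. Microglia and oligodendrocyte precursors had 0 falls with that block. Array weights gave 17 rises in interferon genes and 10 in myelin. With median centring the rises were 1 in the Sonic hedgehog list, 4 in Bergmann glia and astrocytes, 7 in voltage-gated channels, 5 in synaptic vesicle genes, 5 in interferon genes, 3 in clock genes, 1 in SAGA, 1 in stress genes and 2 in metallothionein and iron genes, and the splicing falls were 5. Glul (0.86), Kit (0.72), Clock (0.59), Spp1 (0.71) and Xbp1 (0.55) were not called there. Leaving out 1 P22 mouse also left fewer members testable, since 3 usable arrays were required at each age. Without mouse 17 the rises were 3 in the GABA list, 2 in glutamate receptors, 6 in voltage-gated channels, 4 in synaptic vesicle genes, 5 in clock genes, 1 in oxidative phosphorylation, 2 in glycolysis, 3 in other ataxia genes and 2 in metallothionein and iron genes. The falls without it were 4 in microglia, 6 in cholesterol synthesis, 2 in chromatin genes and 2 in oligodendrocyte precursors. Without mouse 11 the rises in these lists were the same except for 3 in glutamate receptors and for 1 in SAGA, and the falls were 7 in cholesterol synthesis, 2 in chromatin genes and 2 in oligodendrocyte precursors. Without mouse 13 the rises were 3 in the GABA list, 3 in glutamate receptors, 4 in synaptic vesicle genes, 1 in oxidative phosphorylation, 2 in glycolysis and 3 in other ataxia genes, and the falls were 4 in SAGA, 2 in chromatin genes and 2 in oligodendrocyte precursors. Without mouse 12 the rises were 5 in Bergmann glia and astrocytes and 7 in voltage-gated channels. Of the P10 mice, leaving out mouse 6 left 5 rises in Bergmann glia and astrocytes, 3 in glycolysis and 1 in SAGA, mouse 8 left 3 in glycolysis, and mouse 4 left 1 in SAGA. The oligodendrocyte precursor falls were 2 without any 1 of mice 3, 4 and 12.

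Among called steps that stayed called with slide as a block, several moved by over 1.5 times. They were smaller for Etv1 (1.66), Tiam1 (1.15), Gad1 (1.04), Kcnc1 (1.40), Slc1a3 (0.90) and Pdgfra (-0.90) and larger for Scn8a (1.25), Spp1 (1.66) and Aldoc (2.72). Slc1a3 was at 0.97, Pvalb at 1.58 and Rbfox2 at -1.01 without mice 3 and 4, each called. At P22 1 spot was also saturated for Glul, Slc1a3, Calb1, Ldhb, Hsp90aa1 and Snap25, and at P10 1 for Fabp7 and Ftl1. A dimmer probe was not called for Ngfr (-0.28), Glul (-0.02), Mt1 (0.46), Atxn1 (-0.01) and Pdgfra (-0.38). Dimmer probes of other named genes that were not called are not all given.

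The same step was set beside that of WT mice to ask whether maturation over these weeks differed by genotype. In WT mice limma called 10444 of 34826 probes (30%). Of the 4737 genes called in KI mice 3657 were called in the same direction in WT mice, 77.2% of the KI calls and 61.8% of the 5917 WT calls (32.3% of WT genes tested), and 0 in the opposite direction. The difference of the steps was called by limma for 0 of 33171 probes, with 1411 at an unadjusted p under 0.05 (4.25%). Without KI mice 3 and 4 and WT P10 mouse 1, which stood apart in the same way, it was again 0, of 32363 probes, with 1882 (5.82%) at that unadjusted p. Using slide as a fixed block, 1603 probes were called, but slide 6 held only WT P22 mice, so that the WT P22 side of that fit rests on mouse 26 alone. A random block for slide gave 0.

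**Figure D5:**
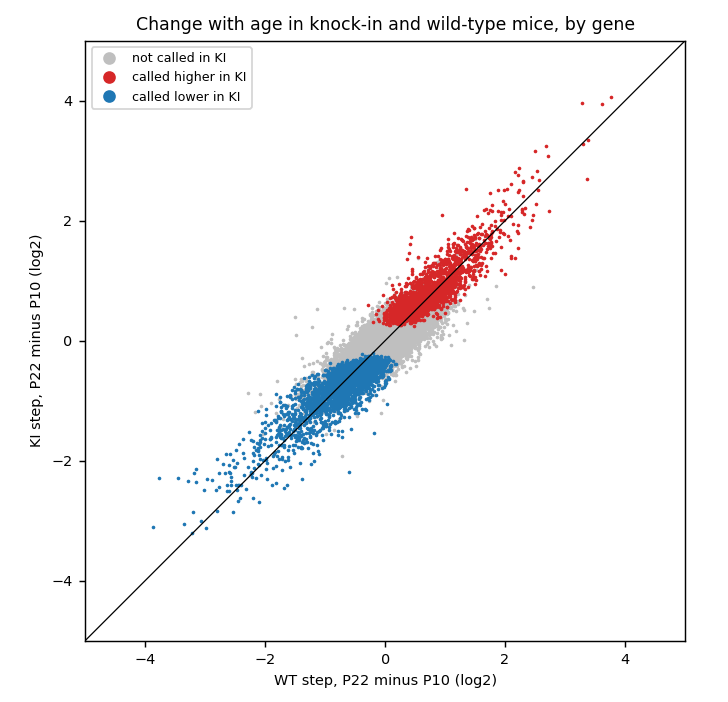
Step from P10 to P22 (log2) in KI mice (vertical) against the same step in WT mice (horizontal), 1 point per gene, with genes called in KI mice in red (higher) or blue (lower) and the line of equal steps in black. Of the 4737 called genes, 4678 have the same sign in WT mice.

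The 5 genes with the smallest p for the difference did not pass, each with a limma adjusted p of 0.991. Ndufab1, the mitochondrial acyl carrier protein, was at -0.16, -0.57, -0.38, -0.26 and -0.38 at P10 and at 0.58, 0.41, 0.41 and 0.62 at P22 in KI mice, a step of 0.85 ± 0.09 against 0.27 ± 0.08 in WT mice, while its second probe was at -0.05 in KI mice. Tiam2, a Rac exchange factor, had steps of 0.45 ± 0.10 in KI and -0.15 ± 0.09 in WT mice. Sema4d, a semaphorin, was at 0.11 ± 0.13 in KI and 0.97 ± 0.13 in WT mice, Lig4, a DNA ligase, at 0.06 ± 0.10 and -0.51 ± 0.09, and Rpusd4, a mitochondrial RNA enzyme, at 0.16 ± 0.09 and -0.36 ± 0.09. The list medians in KI and WT mice were -2.34 and -2.45 for mitosis, 2.15 and 2.13 for granule neurons, 1.23 and 1.15 for Purkinje cells, 0.34 and 0.37 for myelin and -0.65 and -0.50 for cholesterol synthesis. Other lists were less alike. Microglia were at -0.51 and -0.28 (7 and 3 called lower), inhibitory interneurons at 0.201 and -0.035, and erythrocytes at -0.167 and 0.435. No rule chose the lists given here. A p above the threshold does not show that the steps were equal.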

How the data were processed

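Cerebellar RNA of each mouse was extracted, amplified with oligo(dT) priming and labelled with Cy5, and hybridised with the Cy3 P10 pool, per the labels' protocols. Per the file headers, Agilent Feature Extraction gave the deposited spot signals and backgrounds as intensity values, its dye-normalised ratio of Cy5 to Cy3 in log10, and spot flags (other values). For 1905 probes a deposited table gives log2 ratios. Its columns correlated at -0.9997 to -0.9613 with the ratios computed here, so its direction is reference over mouse. Its centring is unknown.

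Here, in limma 3.58.1 under R 4.3.3, intensities were corrected by normexp with offset 50, log2 ratios were normalised by loess within arrays, outlier spots were set to missing and spots of a probe averaged. A probe was kept where 4 or more of the 30 arrays read Cy5 well above background and each compared group had 3 usable arrays. The limma model held 1 mean for each of 6 groups over all 30 arrays, with two-sided p-values adjusted by Benjamini-Hochberg. On simulated data with 200 changed probes it recovered 85% of steps of 1 and 99% of steps of 2. The simulated noise was independent between arrays, without a slide effect, whereas the real arrays had a within-slide correlation of 0.427. The simulation therefore cannot show how the calls hold under that correlation. A gene was represented by its brightest tested probe. Symbols came from the files, updated through RefSeq (GRCm38.p6). The named genes are the 15 largest rises and falls that were called without overlap, the 3 called members of each list with the smallest p, members needed to account for a count of 5 or fewer, the 5 smallest p for the difference, Atxn7, and any receptor, channel, Sonic hedgehog, SAGA or other-tissue member. Other list members that are named were chosen after their values were seen. The comparison, the 36 gene lists and the alternatives were chosen with earlier results of these data known, and leaving out mice 3 and 4 was added after the files were seen. Lists are described by counts and medians, with no test. The replicates are separate mice. The number of arrays limits the precision. Some list members are counted in their lists and not reported here by name.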

Additional observations from a re-analysis of the deposited data

Results flagged for a closer look

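Single mice lay far from the rest of their group, by Dixon's test at the 95% level, for 5 of 121 gene values tested in KI P10 and 5 of 98 in KI P22, and for 0 of 36 and 1 of 36 list means. Chance alone flags about 1 group in 20. Atoh7 was at 0.99 in P10 mouse 9 against -0.25 to -0.11 in the others, and at 2.25 in P22 mouse 17 against 3.09 to 3.14. P10 mouse 9 also lay apart for Gad1, at 0.48 against -0.79 to -0.44, for Tiam1, at 0.64 against -0.25 to -0.09, and for Pfkm, at 0.58 against 0.02 to 0.08. In each of these 4 genes mouse 9 was the P10 mouse closest to P22. P10 mouse 3 was at 0.51 for Taf6l, against 0.83 to 0.88.

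P22 mouse 17 was at -0.26 for Lig4 against -0.07 to -0.04 and at 0.05 for the mean of the insulin-like growth factor and neurotrophin list against -0.30 to -0.29. P22 mouse 13 was at 2.02 for Cbln3 against 2.28 to 2.32 and at -0.06 for Tiam2 against 0.11 to 0.15. Kit was at 0.91 in P22 mouse 11, against 0.62 to 0.64. The cause of these was not tested.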

How the results depend on the processing

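Of 121 named genes followed, 73 kept direction and call under every alternative other than slide blocks and left-out mice. A call was lost for 4 of them without some 1 mouse, for 14 with median centring, for 27 with slide as a fixed block and for 41 with scan day, 0 changing sign. Only 96 of the 121 could be tested without P22 mouse 17, 98 without mouse 11 and 99 without mouse 13. The count of 4 therefore says nothing of the genes not tested there. The count of called probes in the KI step was 3987 with slide as a fixed block (1660 higher, 2327 lower), 2774 with scan day as a block (1152 and 1622), 11883 with array weights (5468 and 6415), 1422 of the fewer probes of the deposited table (612 and 810), and 4305 without KI mice 3 and 4 and WT mouse 1 with slide as a block (1705 higher). It ran from 4472 to 7093 over left-out mice (1993 to 3284 higher, 2479 to 3809 lower). Median centring left 1306 higher. The difference between genotypes, 0 otherwise, was called for 1603 probes with slide, 534 with scan day, and 2590 with slide and without those 3 mice. The WT step gave 5465, 3781, 5388 and, in the deposited table, 1515. The Atxn7 step was not called with median centring (0.48), Cy5 alone (0.52), no detection filter (0.60), slide as a fixed (0.55) or random (0.47) block, scan day (0.46), or without the 3 mice (0.60, and 0.59 with slide), and ran from 0.49 to 0.68 over left-out mice. The cause was not tested, save that the deposited table holds fewer probes. No paired analysis was possible because mouse numbers are unique and the groups share none.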
